A study of Mus musculus with 4 samples.

Results

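The lecticans, tenascins and perineuronal net genes are 10 genes of the brain extracellular matrix chosen by symbol: the lecticans Acan, Bcan, Ncan and Vcan, the receptor phosphatase gene Ptprz1, the tenascins Tnc and Tnr, and the link protein genes Hapln1, Hapln2 and Hapln4. All 10 were found by Ensembl identifier among the 55421 genes listed for each library, and 8 of them were among the 17144 genes with enough counts to be tested. In cultures given FGF2, 5 of the 10 were higher: Tnr rose 3.59-fold, and Vcan, Bcan, Ptprz1 and Ncan rose by 1.65-fold, 1.42-fold, 1.37-fold and 1.22-fold. Tnc fell, and was 1.59-fold higher without FGF2. The changes of Acan and Hapln1 did not pass the test, and Hapln2 and Hapln4 were close to the limit of detection.

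Lecticans are large chondroitin sulfate proteoglycans that bind the polysaccharide hyaluronan at one end and tenascins at the other, and link proteins clamp the lectican to hyaluronan. Tenascins bridge neighbouring lecticans, so that the 3 kinds of protein and hyaluronan form the mesh of the brain's extracellular matrix. In its densest form, the perineuronal net, this mesh wraps the soma and dendrites of certain neurons, in cortex above all the parvalbumin interneurons, and it is known for limiting plasticity as the cortex matures. PTPRZ1 is a receptor tyrosine phosphatase whose secreted form, phosphacan, is itself a chondroitin sulfate proteoglycan that binds tenascins.

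The study was mainly about neuron types in cultured human fetal prefrontal cortex (PFC) of several gestation weeks (GW). It also compared human cultures with and without the growth factor FGF2, and used mouse PFC to ask whether the effects held in another species. PFC of wild-type C57BL/6 mice at postnatal day 0 was dissociated and grown for 10 days in neurobasal medium with B27 and GlutaMAX. The FGF2 group received FGF2 at 5 ng/mL and the no FGF2 group received none (0 ng/mL), and each group has 2 bulk RNA-seq libraries, numbered replicate 1 and replicate 2 here. The number of animals per culture is not given in the sources used here, and the study's methods give 2 technical replicates for samples other than GW11 and GW20 without naming the mouse cultures, so the p-values below may measure only the spread between libraries of one culture.

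The FGF2 libraries held 9166432 and 9907613 counts on genes, and the no FGF2 libraries 10460236 and 10799886. At this depth a count of 3 corresponds to between 0.277 and 0.331 CPM, the unit of depth-normalised counts used here (edgeR with TMM factors). Levels are given in CPM for 1 gene across libraries, and in CPM per kb of exon (also called per length) where genes are compared with each other. Exon length counts every annotated exon base of a gene once, over all its transcripts, and the order of genes can change with the length used. All errors on levels are SDs over the 2 libraries of a group (n = 2). Of 8 FGF feedback genes, which are known to respond to FGF receptor signalling, 6 rose and 1, Etv4, fell, and Lhx2, a forebrain marker, had 649 to 789 counts in every library. With DESeq2 the calls of Etv4, Spry1, Spry2 and Dusp6 were lost. Without no FGF2 replicate 1, Etv4 and Spry2 did not pass (adjusted p = 0.0877 and 0.177), nor did Spry2 without FGF2 replicate 1 (0.0827) or Etv4 without FGF2 replicate 2 (0.0731). In bulk RNA a change in the number of cells of one type and a change in RNA per cell cannot be told apart.

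Among the 8 genes tested, 5 were higher with FGF2 by edgeR's quasi-likelihood test at a Benjamini-Hochberg adjusted p under 0.05, where 20.7% of all tested genes were called higher. Only Tnc was called lower, where 19.9% of all tested genes were. Both FGF2 libraries lay above both no FGF2 libraries in CPM for 6 of the 8 genes, against 33.6% of all tested genes, and below them for the remaining 2, Tnc and Hapln1, against 33.4%. The median log2 fold change was 0.36 over the 8 genes and -0.0008 over all tested genes. Tnr was the only member with a log2 fold change above 1, and it ranked 316 from the top of the 17144 genes tested, whereas Tnc ranked 1279 from the bottom.

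**Figure D1:**
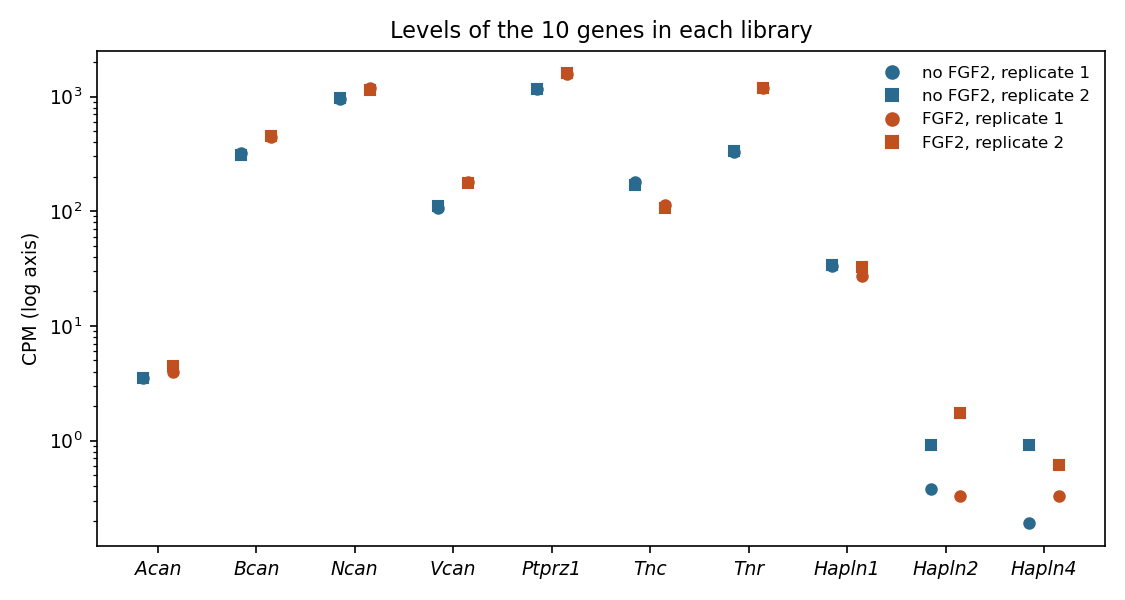
Levels in CPM (log axis) of the 10 genes in each of the 4 libraries, with circles for replicate 1 and squares for replicate 2 and a colour for each treatment. The FGF2 libraries of Tnr sit at 1193 and 1177 CPM against 327.7 and 332.4 without FGF2, the order is the other way round for Tnc, and the libraries of Hapln2 and Hapln4 intermingle.

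Of the lecticans, Ncan (neurocan, ENSMUSG00000002341) encodes a nervous system lectican that is abundant in the developing brain. It lies on the minus strand at chr8:70093085-70120873 (mm10). Ncan had 10784 and 11228 counts with FGF2 against 10024 and 10428 without. In CPM these were 1188 and 1142 against 954.1 and 963.2, so both FGF2 libraries were above both controls. Ncan rose by a log2 fold change of 0.28 (SE 0.03, edgeR adjusted p = 1.51e-16), the smallest of the 5 rises. It was nevertheless the most abundant member per kb of exon, at 161.9 ± 4.61 CPM per kb with FGF2 and 133.2 ± 0.899 without. This placed it at percentile 99.5 of the tested genes. By length of the longest transcript, Ptprz1 stood above it.

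Bcan (brevican, ENSMUSG00000004892; chr3:87987531-88000230, minus strand) encodes the shortest lectican, a brain-specific proteoglycan made by glia and present in adult matrix. It had 3986 and 4476 counts with FGF2 against 3376 and 3352 without, or 439.3 and 455.1 CPM against 321.3 and 309.6. The groups did not overlap, and the rise was 0.50 on the log2 scale (SE 0.04, edgeR adjusted p = 2.31e-34). Per length Bcan reached 110.0 ± 2.75 CPM per kb with FGF2 and 77.6 ± 2.04 without.

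Vcan (versican, ENSMUSG00000021614; chr13:89655312-89742509, minus strand) encodes a widely expressed lectican whose splice forms carry different chondroitin sulfate attachment regions. It had 1630 and 1748 counts with FGF2 against 1111 and 1204 without. At 179.6 and 177.7 CPM against 105.7 and 111.2, both FGF2 libraries were well above both controls. The rise was 0.72 on the log2 scale (SE 0.06, edgeR adjusted p = 1.42e-34), which was the steepest among the lecticans. Per length it was far below Ncan and Bcan, at 12.4 ± 0.0933 CPM per kb with FGF2 and 7.501 ± 0.267 without. Gene counts sum the splice forms, so which of them changed was not measured.

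Acan (aggrecan, ENSMUSG00000030607; chr7:79053483-79115099, plus strand) encodes the lectican most closely tied to perineuronal nets. It had only 36 and 44 counts with FGF2 against 37 and 38 without, or 3.97 and 4.47 CPM against 3.52 and 3.51. The FGF2 libraries were the higher ones, but the log2 fold change of 0.26 had an SE of 0.31 and did not pass the edgeR test (adjusted p = 0.536). At 0.565 ± 0.048 and 0.471 ± 0.0011 CPM per kb, Acan stood at percentile 5.76 of the tested genes. In the 4 libraries Ncan was 311.0, 264.9, 281.2 and 284.9 times as abundant as Acan per length. Of the counts summed over the 10 genes, Acan held between 0.084% and 0.114%.

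As shares of the length-normalised sum of the 4 lecticans, Ncan made up 57.7% and 56.0% with FGF2 and 60.4% and 61.4% without. Bcan made up 37.8% and 39.5% with FGF2 and 36.0% and 34.9% without. Vcan took 4.34% and 4.33% with FGF2 and 3.33% and 3.52% without, and Acan stayed between 0.186% and 0.215% in all libraries. The mix thus leaned from Ncan (-4.05 percentage points) towards Bcan (3.16 points) and Vcan (0.91 points). For each of the 4 lecticans the groups did not overlap, Acan being slightly lower with FGF2 on 36 to 44 counts. The two-sided exact permutation test gave p = 0.3333 for each, the smallest value that 2 against 2 libraries allow.

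**Figure D2:**
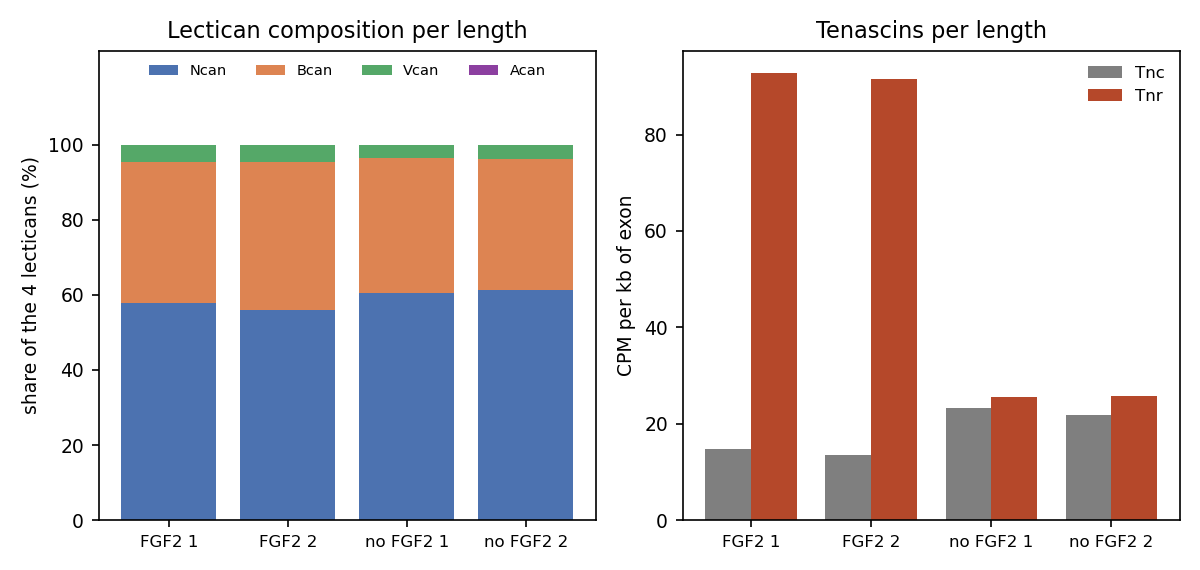
The left panel stacks the share in percent of each lectican in their summed CPM per kb for every library, with the Acan share too thin to be seen. The right panel gives Tnc and Tnr in CPM per kb as bars from 0 for every library, where the genes stand close together without FGF2 and Tnr is at least 6.31 times Tnc with FGF2.

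Ptprz1 (ENSMUSG00000068748; chr6:22875502-23052916, plus strand) had the highest counts of the set, 14283 and 15696 with FGF2 and 12163 and 12618 without. These are 1574 and 1596 CPM against 1158 and 1165, with a wide gap between groups and little spread within them. Ptprz1 rose by 0.45 on the log2 scale (SE 0.03, edgeR adjusted p = 4.09e-44). Per kb of exon it came second to Ncan without FGF2, at 81.5 ± 0.389 against 133.2 ± 0.899 CPM per kb. With FGF2 it reached 111.3 ± 1.08, next to Bcan at 110.0 ± 2.75. This order depends on the length used: Ptprz1 has 14245 exon bases but a longest transcript of 8068, against 7195 for both in Ncan. By longest transcript Ptprz1 stood above Ncan in both groups. The receptor form and secreted phosphacan come from the same gene and were not separated by these counts.

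The tenascins, multimeric glycoproteins, moved in opposite directions, with Tnr called higher and Tnc called lower. Because they part in this way, the 250 bases before their annotated starts are shown, from RefSeq on GRCm38.p6 and written 5′ to 3′ along the gene's strand. Tnc is read from chr4:64047016-64047265 (minus strand) and Tnr from chr1:159523519-159523768 (plus strand). Capitals mark the GC box GGGCGG or its reverse complement.

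Tnc promoter: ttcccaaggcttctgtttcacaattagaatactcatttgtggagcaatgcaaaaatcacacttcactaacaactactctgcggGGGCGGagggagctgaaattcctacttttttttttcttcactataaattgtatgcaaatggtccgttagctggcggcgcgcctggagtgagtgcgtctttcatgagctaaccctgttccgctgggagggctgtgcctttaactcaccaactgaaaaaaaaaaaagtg

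Tnr promoter: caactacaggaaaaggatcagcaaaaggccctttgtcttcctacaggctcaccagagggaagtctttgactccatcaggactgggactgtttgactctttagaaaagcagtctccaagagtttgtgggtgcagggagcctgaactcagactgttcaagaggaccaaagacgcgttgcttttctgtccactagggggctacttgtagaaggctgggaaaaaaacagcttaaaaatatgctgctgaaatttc

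The Tnc window shown is the upstream one of 2 RefSeq starts. It holds 1 GC box, 167 bases before the start, and the Tnr window holds none. Across the members a GC box was also found before Acan, Bcan, Ncan, Vcan and Ptprz1 and not before Hapln1 and Hapln2, where 32.7% of the 32851 RefSeq windows of this length hold one. For Acan, Bcan and Vcan, the 50 bases after the RefSeq start matched no transcript of the gene in the GENCODE annotation. The letters of an AP-1 site (TGANTCA), a CRE (TGACGTCA), an NF-kB site and an E-box (CACGTG), searched on both strands, were in none of the members' windows. They occur in 6.75%, 1.55%, 1.41% and 6.02% of all windows, and none of these motifs overlaps another in the windows shown. A match of letters is a description of sequence and not evidence of binding.

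Tnr (tenascin-R, ENSMUSG00000015829; chr1:159523769-159931729, plus strand) encodes a nervous system tenascin made mainly by oligodendrocyte lineage cells and some interneurons, and it crosslinks lecticans in perineuronal nets. It had 10828 and 11574 counts with FGF2 against 3443 and 3599 without. At 1193 and 1177 CPM against 327.7 and 332.4, this was the widest separation in the set. The log2 fold change was 1.84 (SE 0.04), with an edgeR adjusted p too small for the software to represent. Leaving out 1 library at a time gave log2 fold changes between 1.83 and 1.85 and an edgeR adjusted p of at most 6.15e-221. Per kb of exon Tnr went from 25.7 ± 0.26 CPM per kb without FGF2, about the level of Tnc, to 92.1 ± 0.909 with FGF2. The latter was near Bcan and Ptprz1. These comparisons depend on the length used: Tnr has 12867 exon bases and 4074 coding bases, against 7772 and 6330 for Tnc. By coding length Tnr was well above Tnc without FGF2 too.

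Tnc (tenascin-C, ENSMUSG00000028364; chr4:63959785-64047015, minus strand) encodes the tenascin of embryonic and injured tissue, made in brain by radial glia and astrocytes. It had 1037 and 1040 counts with FGF2 against 1897 and 1829 without, or 114.3 and 105.7 CPM against 180.6 and 168.9. Both FGF2 libraries were below both controls. Tnc fell by 0.67 on the log2 scale (SE 0.06, edgeR adjusted p = 1.16e-29), from 22.5 ± 1.06 to 14.2 ± 0.777 CPM per kb.

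Per kb of exon, Tnr was 6.31 and 6.72 times as abundant as Tnc in the FGF2 libraries and 1.10 and 1.19 times in the no FGF2 libraries. The log2 ratio of Tnc to Tnr counts was -3.43 ± 0.065 with FGF2 and -0.92 ± 0.082 without, a difference of -2.51. The exact permutation test gave p = 0.3333, the smallest possible (0.467 adjusted over the 7 pairs of members compared). Among the other pairs, Vcan came closer to Ncan, with a log2 ratio of -2.70 with FGF2 and -3.14 without, a difference of 0.44. Vcan moved apart from Hapln1 by 0.90 on the log2 scale. The ratio of Ptprz1 to Bcan differed by only -0.06 between groups, and each of these pairs had the same p.

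The annotation places other transcripts within the tenascin genes. Tnr shares 443 exonic bases with the antisense gene Gm38039, which had 0 counts in all 4 libraries, and Tnc shares 176 with the opposite-strand gene 8030451A03Rik, which had 1 to 5. With the strand setting of the counting not stated, reads from these stretches cannot be assigned to one strand. On the Tnr strand and within its span, 2 noncoding genes that share no exon with it were singled out after their values were seen. Gm37731 had 221 and 171 counts with FGF2 against 27 and 40 without, a log2 fold change of 2.72 (SE 0.20, edgeR adjusted p = 4.79e-39). Gm10530 had 123 and 112 counts with FGF2 against 29 and 39 without, a log2 fold change of 1.96 (SE 0.23, edgeR adjusted p = 9.54e-16). The counts of both genes cannot be told apart from unspliced RNA of Tnr itself, and whether they respond separately from Tnr was not tested.

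**Figure D3:**
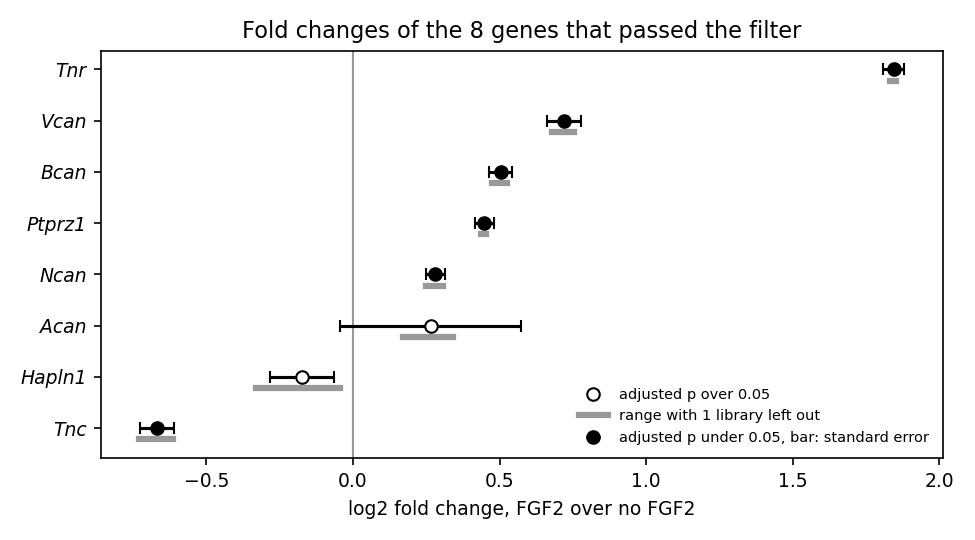
Log2 fold changes, FGF2 over no FGF2, of the 8 genes tested, with the standard error as a bar, filled points for an adjusted p under 0.05, and a grey line for the range with 1 library left out. Tnr stands apart at 1.84, Tnc lies at -0.67, and the open points of Acan and Hapln1 have the widest grey lines.

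Of the link protein genes, Hapln1 (ENSMUSG00000021613; chr13:89539796-89611652, plus strand), whose product stabilises lecticans on hyaluronan in cartilage and brain, was the only one that could be tested. It had 245 and 324 counts with FGF2 against 352 and 371 without, or 27.0 and 32.9 CPM against 33.5 and 34.3. The FGF2 libraries were the lower ones but FGF2 replicate 2 lay close to the controls. The log2 fold change of -0.17 (SE 0.11) did not pass the edgeR test (adjusted p = 0.21). The call depended on FGF2 replicate 2: without it the log2 fold change was -0.33 with an edgeR adjusted p of 0.0392.

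Hapln2 (ENSMUSG00000004894; chr3:88021750-88027583, minus strand), which encodes the link protein of nodes of Ranvier on myelinated axons, had 3 and 17 counts with FGF2 against 4 and 10 without. Hapln4 (ENSMUSG00000007594; chr8:70083457-70090862, plus strand), which encodes a link protein of perineuronal nets that partners brevican, had 3 and 6 counts with FGF2 against 2 and 10 without. Both failed the filter on low counts, the groups overlapped, and no fold change is given. Summed per length, the 4 lecticans outnumbered these 3 link protein genes by 59.7 and 43.9 with FGF2 and by 37.3 and 33.9 without.

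Each lectican gene has a link protein gene as its neighbour on the chromosome, with no annotated gene between them. Ncan and Hapln4 are 2222 bases apart, Bcan and Hapln2 21519, Vcan and Hapln1 43659, and Acan and Hapln3 2. Ncan, Bcan and Vcan rose and stood above their neighbours in level per length, and Acan did not pass the test. Of the link protein genes, Hapln1 and Hapln3 did not pass either, and Hapln2 and Hapln4 could not be tested. Vcan and Hapln1 were thus the only tested neighbours with different calls. Hapln3 had 22 and 10 counts with FGF2 against 33 and 32 without (log2 fold change -0.84, SE 0.41, edgeR adjusted p = 0.0949, and 0.0136 without FGF2 replicate 1).

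Together the 10 genes held 42835 and 46153 counts with FGF2, or 0.467% and 0.466% of all gene counts, and 32409 and 33459 without, or 0.31% in each library. In summed CPM this was 4707 ± 19.9 with FGF2 and 3088 ± 4.17 without, a ratio of 1.52 (exact permutation test, two-sided p = 0.3333). Tnr accounted for 52.8% of the summed difference, Ptprz1 for 26.2%, Ncan for 12.7% and Bcan for 8.14%. As a share of the summed counts Tnr went from 10.6% and 10.8% without FGF2 to 25.3% and 25.1% with it, while Ptprz1 went from 37.5% and 37.7% to 33.3% and 34.0%.

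The genes that make, bind or cut this matrix were described with 8 lists of 93 genes in all, of which 88 passed the filter. With FGF2, 26 rose, 25 fell and 37 passed in neither direction, and the median log2 fold change was -0.02. Over all tested genes 20.7% were called higher and 19.9% lower, and the counts of each matrix and marker list below are to be read beside these shares. With DESeq2 18 rose and 11 fell, where it called 2068 higher and 1939 lower over all genes. Genes named in the next paragraphs beyond the largest rise, the largest fall and the highest level of each list were chosen after their values were seen, and the adjusted p-values are edgeR's over all tested genes.

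For hyaluronan, the backbone that lecticans bind, 4 of the 12 genes tested rose and 2 fell, with a median of 0.06 on the log2 scale. Has2, a hyaluronan synthase at the plasma membrane, had 195 and 269 counts with FGF2 against 13 and 15 without, a log2 fold change of 4.21 (SE 0.23, adjusted p = 1.18e-70). Cd44, the main cell surface receptor of hyaluronan, had 2974 and 3310 counts with FGF2 against 689 and 740 without, a log2 fold change of 2.31 (SE 0.05). The other rises were those of Stab1 (1.02), a scavenger receptor, and Ugdh (0.33), which makes the UDP-glucuronate used for both hyaluronan and chondroitin chains. The falls were those of Hmmr (-1.15), a hyaluronan receptor also known as a mitotic spindle protein, and the synthase Has3 (-0.89). The calls of Has3 and Ugdh were lost without FGF2 replicate 2 (adjusted p = 0.173 and 0.136) and with DESeq2 (0.144 and 0.0795), that of Has3 also without no FGF2 replicate 2 (0.15) and that of Ugdh without no FGF2 replicate 1 (0.0728).

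The enzymes that start and extend chondroitin chains numbered 12, of which 2 fell and 10 did not pass the test, with a median of -0.11. Those called were Chsy3, a chain polymerase, at -0.41 (adjusted p = 0.00297) and Fam20b, a xylose kinase, at -0.19 (adjusted p = 0.0204). Xylt1, which adds the first sugar and had the highest level of the list, differed by 0.03 (adjusted p = 0.662). Both calls were lost without no FGF2 replicate 2 (adjusted p = 0.114 for Chsy3 and 0.359 for Fam20b) and with DESeq2 (0.104 and 0.193), and that of Fam20b also without FGF2 replicate 2 (0.0751).

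Of the 11 sulfation and epimerisation genes tested, 6 rose and 2 fell, with a median of 0.32. Papss2, a synthase of the sulfate donor PAPS, had 889 and 1040 counts with FGF2 against 272 and 263 without, a log2 fold change of 2.02 (SE 0.09, adjusted p = 1.84e-115). Ust (1.46), which sulfates uronic acid, and Dse (1.31), an epimerase that turns chondroitin into dermatan sulfate, also rose, as did Chst3 (0.60), Papss1 (0.32) and Dsel (0.28). Chst15 (-0.34, adjusted p = 0.0235) and Chst11 (-0.24, adjusted p = 0.00407) fell. These falls and the rise of Dsel were lost with DESeq2 (adjusted p = 0.231, 0.0864 and 0.329). Without FGF2 replicate 2, Chst11 (adjusted p = 0.0594) and Dsel (0.217) did not pass, and without no FGF2 replicate 1, Chst15 (0.133) and Dsel (0.51) did not. The call of Chst15 was also lost without FGF2 replicate 1 (0.133) and without no FGF2 replicate 2 (0.0733).

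Of 9 other chondroitin or dermatan sulfate proteoglycan genes, 4 rose and 3 fell, with a median of -0.03. Bgn (biglycan) was at 0.68 and Cspg4 (NG2, a marker of oligodendrocyte precursors) at 0.56, with Cspg5 at 0.15 and Aplp2 at 0.09. The 3 testican genes fell, Spock3 by 0.65, Spock2 by 0.61 and Spock1 by 0.24 on the log2 scale. The calls of Cspg5, Aplp2 and Spock1 were lost with DESeq2 (adjusted p = 0.0522, 0.0856 and 0.0509) and without no FGF2 replicate 1 (0.0733, 0.242 and 0.0879). Without FGF2 replicate 1, Aplp2 (0.126) and Spock1 (0.0517) did not pass, nor did Aplp2 without no FGF2 replicate 2 (0.182). Of the remaining link protein and tenascin genes, Tnn was the only one called, with 37 and 21 counts with FGF2 against 0 and 6 without (adjusted p = 1.07e-07, 0.161 with DESeq2). Tnxb differed by 0.39 (adjusted p = 0.237).

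Of 9 tested genes for proteases that cut lecticans and their inhibitor, 3 rose and 3 fell, with a median of -0.19. Adamts4, a protease that cleaves aggrecan, brevican and versican, had 190 and 191 counts with FGF2 against 54 and 57 without, a log2 fold change of 1.95 (SE 0.18, adjusted p = 6.98e-25). Adamts1 (1.43) and the inhibitor Timp3 (0.32) also rose. Adamts15 (-0.55), Adamts20 (-0.39) and Adamts9 (-0.19) fell. All 3 falls were lost with DESeq2 (adjusted p = 0.106, 0.0718 and 0.273), and those of Adamts15 and Adamts9 without FGF2 replicate 2 (0.0862 and 0.324). Adamts9 also did not pass without no FGF2 replicate 1 (0.123) or replicate 2 (0.173).

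Among 23 genes for receptors and ligands of this matrix or of Ptprz1, 8 rose and 7 fell, with a median of 0.16. Nfasc (neurofascin), a cell adhesion molecule of axons and oligodendrocytes, had 9606 and 10164 counts with FGF2 against 5443 and 5679 without, a log2 fold change of 1.00 (SE 0.03, adjusted p = 1.08e-177). Lrp1, a large endocytic receptor and the most abundant of the list in CPM, rose by 0.36. Ptn, a growth factor ligand of PTPRZ1, was at 311.5 CPM in both groups, and the related Mdk rose by 0.28 on the log2 scale. Cntn1, the contactin bound by PTPRZ1, fell by 0.17. All 3 Nogo receptor genes fell, Rtn4r (-0.76), Rtn4rl1 (-0.58) and Rtn4rl2 (-0.78), a family with members that bind chondroitin sulfate chains. The other rises were those of Itga9 (0.75), Itgb1 (0.67), Itgav (0.57), Cntn3 (0.51) and Ptprs (0.17). The other falls were those of Scn2b (-0.61), Cntn5 (-0.45) and Nrcam (-0.25). With DESeq2 the calls of Mdk and the 3 Nogo receptor genes were lost (adjusted p = 0.0742, 0.112, 0.0665 and 0.184). DESeq2 also lost those of Itga9, Cntn3 and Cntn5 (0.0713, 0.292 and 0.0827). The call of Cntn3 was also lost with no filter (0.0508) and without FGF2 replicate 1, FGF2 replicate 2 or no FGF2 replicate 1. Without no FGF2 replicate 1, Cntn1 (0.0533), Mdk (0.0562), Rtn4r (0.0604) and Rtn4rl2 (0.316) did not pass, and without FGF2 replicate 1, Rtn4r (0.0857) and Rtn4rl1 (0.0631) did not.

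Of 9 factors associated with perineuronal nets, 6 fell and 3 did not pass the test, with a median of -0.38. Crtac1, a secreted antagonist of Nogo receptors, had 152 and 166 counts with FGF2 against 298 and 314 without, a log2 fold change of -0.77 (SE 0.13, adjusted p = 2.31e-08). Sema3a (-0.74), a guidance protein held in nets, Nptxr (-0.57), a pentraxin receptor, Sdc3 (-0.38), Adam22 (-0.36) and Lgi1 (-0.23) fell as well. The call of Lgi1 was lost with DESeq2 (adjusted p = 0.188), without FGF2 replicate 2 (0.0796) and without no FGF2 replicate 1 (0.257).

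**Figure D4:**
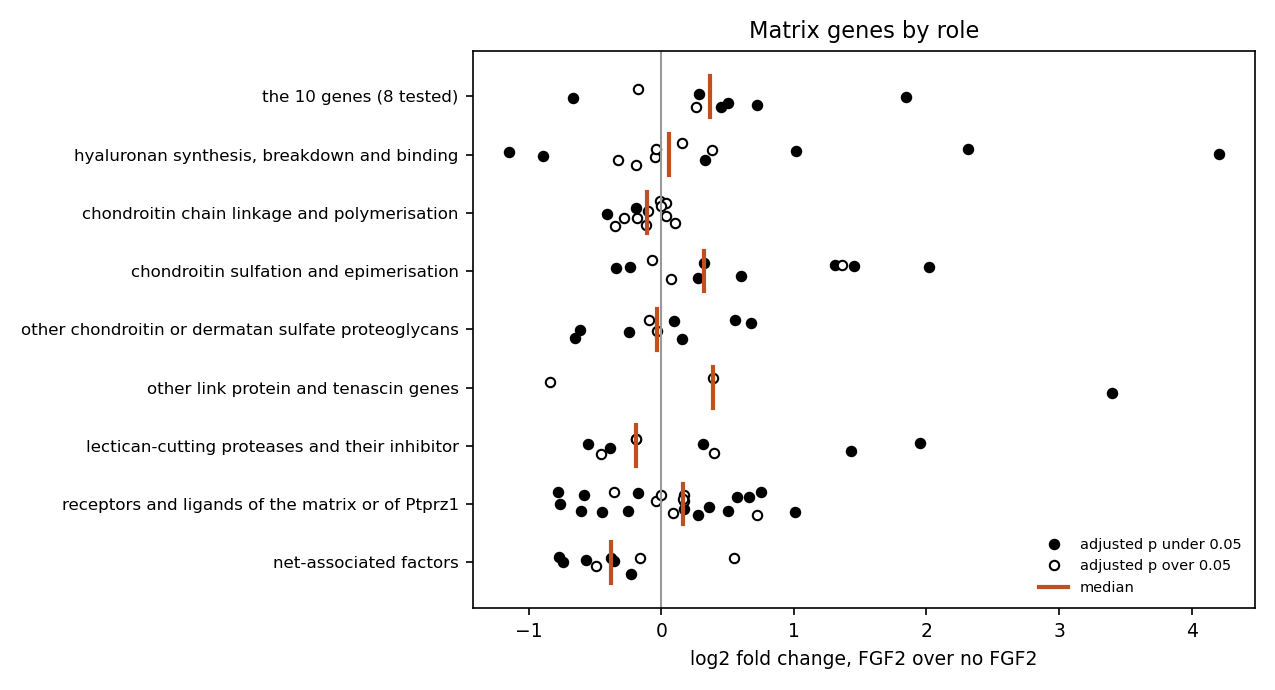
Log2 fold changes, FGF2 over no FGF2, of each tested gene in the members and the 8 matrix lists, with filled points for an adjusted p under 0.05, open points for others and a line at each list's median. The points of the net-associated factors that passed the test all lie below 0, and those of the sulfation list lie mostly above it.

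Markers of several cell types moved with the members, and their part in the members' changes was not tested. In 10 oligodendrocyte precursor markers the summed level was 986.7 and 1000 CPM with FGF2 and 416.4 and 419.8 without, and 9 of the 10 rose. Of the 9 mature oligodendrocyte markers 6 could be tested, of which 5 rose, and the summed level was 601.2 and 607.4 CPM against 125.1 and 129.9. Mbp, a main myelin protein gene, had 4213 and 4580 counts with FGF2 against 1055 and 1139 without, and Mog had 4 and 2 counts with FGF2 against 1 and 2 without. Astrocyte markers summed to 12510 and 12390 CPM with FGF2 and 7613 and 7562 without, with 7 of 9 tested higher and Fgfr3 lower. Much of the difference in the sum came from Gfap, with a mean of 5793 CPM with FGF2 and 2776 without. The 7 rises ranged from 0.21 for Gja1 to 1.06 for Gfap on the log2 scale.

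Neuronal markers went the other way. Of 10 pan-neuronal markers 8 fell and 1, Nefl, rose, and their sum was 2902 and 2956 CPM with FGF2 and 4033 and 4006 without. The rise of Nefl was lost with DESeq2 (adjusted p = 0.0764) and without no FGF2 replicate 2 (0.0599), and the falls of Snap25 and Elavl4 were lost with DESeq2 (0.107 and 0.101). Of 8 parvalbumin interneuron markers 6 fell, with a sum of 749.8 and 785.3 CPM against 1170 and 1174. Most of the sum came from Gad1, Gad2 and Erbb4, at means of 268.3, 151.6 and 238.2 CPM with FGF2. The paper uses GAD1 and GAD2 as markers of inhibitory neurons, so the sum is not specific to parvalbumin cells. Kcnc2 and Syt2 did not pass the test (edgeR adjusted p = 0.588 and 0.151). Pvalb itself, the marker of the neurons that most often carry nets, had 18 and 19 counts with FGF2 against 44 and 55 without (adjusted p = 0.00146, but 0.0697 with DESeq2 and 0.053 without no FGF2 replicate 2). For radial glia and progenitors, 4 of 8 markers rose and 3 fell, with sums of 2365 and 2360 CPM against 1474 and 1523. The higher sums came from Vim, with a mean of 1575 CPM with FGF2 and 673.6 without. Pax6, Sox2 and Sox9 also rose, Nes, Hopx and Fabp7 fell, and the list's median log2 fold change was -0.02. Proliferation markers summed to 148.4 and 143.6 CPM with FGF2 and 197.3 and 196.3 without, and 5 of 6 fell. Of these, Cdk1 did not pass with DESeq2 (adjusted p = 0.0917) or without FGF2 replicate 1 (0.0672). Birc5 did not pass with DESeq2 (0.304), limma-voom (0.0562) or no filter (0.0591), nor without FGF2 replicate 1 (0.0724), FGF2 replicate 2 (0.126) or no FGF2 replicate 1 (0.522).

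Cells from outside the neural lineage gave low sums. Microglial markers reached 11.7 and 13.9 CPM with FGF2 and 5.52 and 5.91 without (2 of 3 tested rose), meningeal fibroblast and mural markers 68.3 and 64.6 against 53.8 and 55.1 (2 of 7 rose and 2 fell), and endothelial markers at most 9.92 (1 of 3 rose and 1 fell), with Cldn5 at 0 in all 4 libraries. The endothelial fall was that of Kdr (adjusted p = 0.0476), lost with DESeq2 (0.314), limma-voom (0.0711), no filter (0.0683) and a replicate block (0.0564), and without FGF2 replicate 1 (0.234) or no FGF2 replicate 2 (0.624). Among the microglial rises, that of Cx3cr1 was lost with DESeq2 (0.183) and without FGF2 replicate 2 (0.21) or no FGF2 replicate 2 (0.146). Of 4 forebrain markers, 1, Tbr1, fell, with sums of 107.3 and 113.4 CPM with FGF2 and 134.6 and 131.8 without.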

How the data were processed

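Bulk RNA-seq of cultured P0 mouse PFC gave 4 libraries. The deposited values are raw counts per gene, which the authors made by mapping reads to mm10 with HISAT2 2.1.0, keeping reads with a mapping quality above 20 and counting with HTSeq 0.11.2 (tool versions from the submitters' processing notes). The strand setting and the annotation release are not given in the sources used here. Files list 55421 genes, of which 55240 matched GENCODE M21 (names, coordinates, exon length), and 5 tally rows were left out. Read pairs in no feature were 43.2% to 45.9% of those tallied. The mapping quality filter removes multi-mapping reads. By BLAST 2.17.0 (minimum 100 bases at 95% identity), 3 of the 10 members matched the transcript of another gene: Ncan with Ankrd40 (107 bases), and Tnc and Tnr with genes that overlap them on the opposite strand.

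The test was edgeR 4.0.16's quasi-likelihood test in R 4.3.3 (TMM, expression filter by group, robust estimation, Benjamini-Hochberg over 17144 genes). Replicates of a group differed by more than sampling noise (chi-square per degree of freedom 2.28 with FGF2 and 1.76 without) and were kept as separate libraries. The biological coefficient of variation, edgeR's estimate of the spread beyond sampling noise, was only 3.9%. These values do not tell separate cultures from technical replicates. Shares and log2 ratios (prior count 0.5) were compared by two-sided exact permutation. The fits were first tested on simulated data. Alternatives were RLE, upper quartile and total scaling, no filter, at least 10 counts in every library, DESeq2 1.42.0, limma-voom (limma 3.58.1), a replicate block, an adjusted p of 0.01, each library left out, other gene lengths and other prior counts. Each pathway list names its largest rise and fall past the threshold with a mean of at least 5 CPM, and its highest level. One list held both Tmem2 and Cemip2, symbols of 1 gene, which is counted once. Some genes of the marker lists are not reported here. The members, lists and motifs were chosen with earlier results of these data known. Promoter windows (RefSeq, GRCm38.p6) matched 9 of the 10 members, all but Hapln4.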

Additional observations from a re-analysis of the deposited data

How the results depend on the processing

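Of the 8 members tested, 7 kept their direction and their side of the threshold under each of 12 alternative settings. The exception was Hapln1, so that the number of members called lower ranged from 1 to 2 over the libraries left out, while 5 were called higher in each. DESeq2 called fewer genes: 2068 higher and 1939 lower over all genes, against 3541 and 3408 with edgeR, and 18 higher and 11 lower among the pathway genes, against 26 and 25. The cause was not tested. Of the 51 pathway genes called, 28 kept the call under each setting that tested them and 23 lost it in at least 1, and of the 66 marker and intronic genes called 54 kept it and 12 lost it. No call was reversed. Scaling moved the median log2 fold change of all genes by less than 0.03. With 1 library left out, the difference in the log2 ratio ranged from -0.9362 to 1.219 for Bcan to Hapln2 and from -0.7974 to 1.216 for Ncan to Hapln4, since Hapln2 and Hapln4 had at most 17 counts. Whether the replicate numbers pair the libraries is not given in the sources used here. The differences of replicate 1 from replicate 2 correlated by 0.0077 between groups over 17144 genes. No shared replicate effect was thus visible, but this correlation cannot decide whether the cultures were matched. The fit with a replicate block called the same numbers of members, 5 higher and 1 lower. Among the pathway and marker genes it lost only the call of Kdr. Exact permutation of 2 against 2 libraries cannot go below p = 0.3333. Depth limits Acan, Hapln2 and Hapln4.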
